A study of Mus musculus with 7 samples.

Results

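The Iroquois genes Irx1 to Irx6 of the mouse lie in 2 paralogous clusters, Irx3, Irx5 and Irx6 on chromosome 8 and Irx1, Irx2 and Irx4 on chromosome 13. Binding of Shox2 and Pbx around them was described from peak lists of chromatin immunoprecipitation followed by sequencing (ChIP-seq) in embryonic tissue. Members were all listed peaks whose midpoint lay in 1 of 2 windows of the mm9 build, from 93.5 to 95.5 Mb on chromosome 8 (2 Mb, the Irx3/Irx5/Irx6 cluster) or from 71.5 to 73.8 Mb on chromosome 13 (2.3 Mb, the Irx1/Irx2/Irx4 cluster). The windows held 247 of the 82921 peaks in the 3 lists together, 165 in the Irx3/Irx5/Irx6 cluster and 82 in the Irx1/Irx2/Irx4 cluster.

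The lists came from freshly dissected mouse embryos at E12.5 (embryonic day). Limb and palate of embryos labelled Shox2-HA were each precipitated with an antibody against HA, the epitope tag on Shox2, and limb was also precipitated with an antibody against Pbx. The labels give no strain, no number of pooled embryos, and no genotype for the Pbx library beyond its target. The other 4 of the 7 libraries, among them the input and the anti-HA precipitate of untagged embryos, were not analysed here. The limb Shox2 and limb Pbx lists held 33915 peaks each, and the palate Shox2 list 15091 positions. Whole-list densities and the limb part of all Shox2 peaks follow from these list lengths. Each group had 1 library, and the lists give positions without height or score, so depth is unknown and no value has a replicate error. Tissue labels could not be checked against marker genes, since nothing was measured but position.

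Iroquois proteins are homeodomain transcription factors of the TALE class, to which the Pbx proteins also belong. Irx3 and Irx5 act together in the early limb bud, where they are needed for proximal and anterior skeletal elements, and human IRX5 is linked to craniofacial development. Irx4 is known for ventricular identity in the heart, and Irx6 for its role in retinal bipolar cells. Shox2 is a homeodomain factor needed for the proximal limb skeleton and for the palate, and Pbx proteins often bind DNA together with other homeodomain factors. In the RefSeq gene table (GRCm38.p6), the protein-coding order on chromosome 8 was Rpgrip1l, Fto, Irx3, Irx5, Irx6, Mmp2, Lpcat2. On chromosome 13 it was Ice1, Adamts16, Irx1, Irx2, Irx4, Ndufs6, Mrpl36. That table is of another build than the peaks, so it gave names and order only, and no peak could be placed on a promoter, an intron or the space between particular genes. For the same reason no sequence under a peak was read.

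The Irx3/Irx5/Irx6 cluster was densely bound in all 3 lists, and the Irx1/Irx2/Irx4 cluster was sparser in each. The Irx3/Irx5/Irx6 cluster held 43 limb Shox2 peaks, 45 palate Shox2 positions and 77 limb Pbx peaks. The Irx1/Irx2/Irx4 cluster held 24 limb Shox2 peaks, 23 palate Shox2 positions and 35 limb Pbx peaks. Per Mb, limb Shox2 peaks numbered 21.5 in the Irx3/Irx5/Irx6 cluster and 10.4 in the Irx1/Irx2/Irx4 cluster, against 13.2 over the whole list. Palate Shox2 positions numbered 22.5 and 10 per Mb in the same order of clusters, against 5.88 over the whole list. Limb Pbx peaks numbered 38.5 and 15.2 per Mb, against 13.2 over the whole list. The density of the Irx1/Irx2/Irx4 cluster was therefore below the whole-list level for limb Shox2 and above it for palate Shox2 and limb Pbx, and the Irx3/Irx5/Irx6 cluster was above it in every list.

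**Figure D1:**
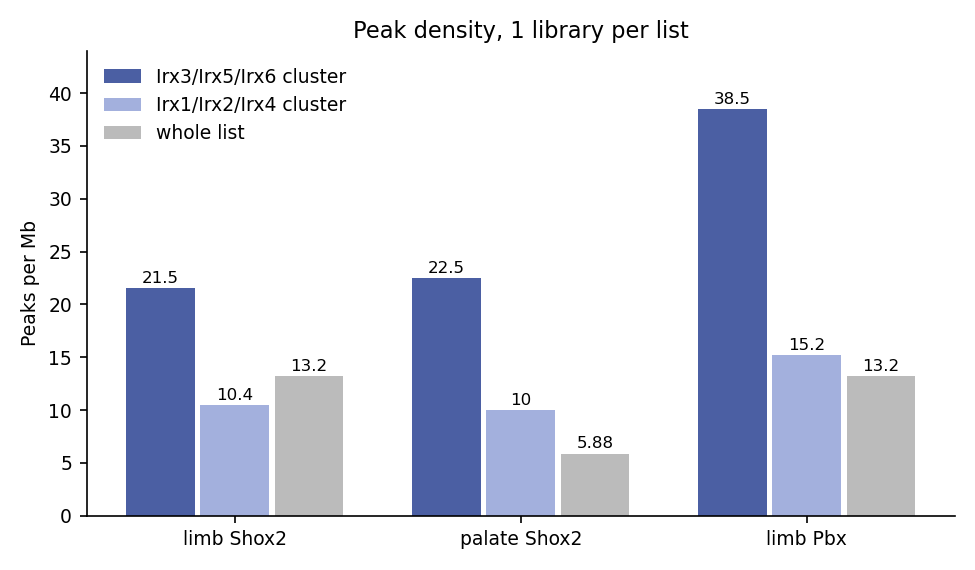
Peaks per Mb (vertical axis) in the limb Shox2, palate Shox2 and limb Pbx lists, for the Irx3/Irx5/Irx6 cluster, the Irx1/Irx2/Irx4 cluster and the whole list over the span covered by peaks. Each bar is 1 library and has no error; the Irx3/Irx5/Irx6 cluster has the highest bar for each list, with 38.5 Pbx peaks per Mb.

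Set beside windows of equal length over the genome, the Irx3/Irx5/Irx6 cluster ranked higher for palate Shox2 than for limb Pbx or limb Shox2. Of 1288 windows of 2 Mb with any peak, 8 (0.621%) held 45 or more palate Shox2 positions, and the median window held 10. For limb Pbx, 33 windows (2.56%) held 77 or more, with a median of 22. For limb Shox2, 236 windows (18.3%) held 43 or more, with a median of 23. Of 1121 windows of 2.3 Mb, as long as the Irx1/Irx2/Irx4 cluster, 205 (18.3%) held at least its 23 palate Shox2 positions. As many limb Pbx peaks were held by 403 of them (36%) and as many limb Shox2 peaks by 609 (54.3%). The Irx1/Irx2/Irx4 cluster thus lay near the middle of the genome for limb Shox2. These ranks describe the lists, and no test was made of them.

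Peaks of all 3 lists lay in each 0.5 Mb stretch of the Irx3/Irx5/Irx6 window, though its first 241 kb and last 120 kb held no palate position. In the Irx1/Irx2/Irx4 window, limb Pbx peaks lay in every stretch described below, and neither Shox2 list was spread in this way. Successive stretches of 0.5 Mb of the Irx3/Irx5/Irx6 cluster held 7, 18, 11 and 7 limb Shox2 peaks, 8, 13, 11 and 13 palate Shox2 positions, and 10, 29, 23 and 15 limb Pbx peaks. No list was empty in any of these stretches. In the Irx1/Irx2/Irx4 cluster, successive stretches, the last of them from 73.5 to 73.8 Mb, held 14, 3, 4, 3 and 0 limb Shox2 peaks. The same stretches held 12, 10, 1, 0 and 0 palate Shox2 positions, and 8, 9, 6, 7 and 5 limb Pbx peaks. Shox2 binding in both tissues was therefore concentrated at the low-coordinate end of this cluster, while Pbx peaks ran on to 73.58 Mb. All 23 palate positions lay before the midpoint of the window at 72.65 Mb, as did 18 of 24 limb Shox2 peaks (75%) and 22 of 35 limb Pbx peaks (62.9%). In the Irx3/Irx5/Irx6 cluster, 21 of 45 palate positions (46.7%), 25 of 43 limb Shox2 peaks (58.1%) and 39 of 77 limb Pbx peaks (50.6%) lay before the midpoint.

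**Figure D2:**
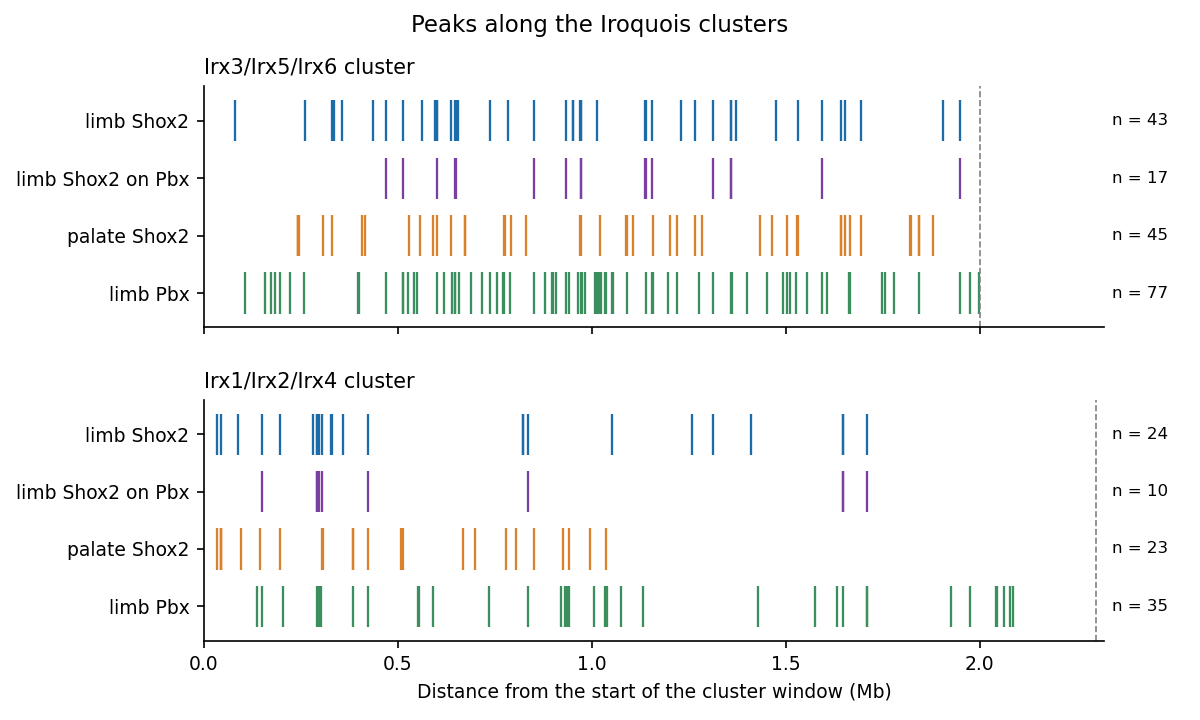
Position of each peak along the Irx3/Irx5/Irx6 window (upper panel) and the Irx1/Irx2/Irx4 window (lower panel), as distance in Mb from the start of the window. Each vertical line is 1 peak centre, rows are the limb Shox2 list, its peaks that overlap limb Pbx, the palate Shox2 list and the limb Pbx list, and the dashed line is the end of the window; all 23 palate positions of the lower panel lie before the midpoint of that window.

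The widest gap between successive limb Shox2 peaks was 212 kb in the Irx3/Irx5/Irx6 cluster, from 95.19 to 95.40 Mb, and 399 kb in the Irx1/Irx2/Irx4 cluster, from 71.92 to 72.32 Mb. A longer stretch without a limb Shox2 peak, 591 kb, ran from the last such peak of the Irx1/Irx2/Irx4 cluster at 73.21 Mb to the end of its window. Both gaps between peaks held peaks of other lists. The first included 5 palate positions between 95.3 and 95.4 Mb, and the second included palate positions and Pbx peaks in each of the 2 stretches of 100 kb from 72.0 to 72.1 Mb and from 72.2 to 72.3 Mb. The median spacing of limb Shox2 peaks was 37.6 kb in the Irx3/Irx5/Irx6 cluster and 43.6 kb in the Irx1/Irx2/Irx4 cluster. For palate positions it was 26.6 and 43.2 kb in that order, and for limb Pbx peaks 17.3 and 38.1 kb.

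The densest 100 kb of limb Shox2 binding in the Irx3/Irx5/Irx6 cluster ran from 94.4 to 94.5 Mb and held 6 limb Shox2 peaks, 3 of them on Pbx, with 2 palate positions and 7 Pbx peaks. The densest Pbx stretch was the next one, from 94.5 to 94.6 Mb, with 11 Pbx peaks, 3 palate positions and 1 limb Shox2 peak. That limb Shox2 peak met none of the Pbx peaks but lay 115 bp from the nearest. With these fixed edges of 100 kb, the densest Pbx and Shox2 stretches were neighbours, and other edges were not tried. In the Irx1/Irx2/Irx4 cluster, 4 limb Shox2 peaks lay in each of 2 adjoining stretches, from 71.7 to 71.8 Mb and from 71.8 to 71.9 Mb. The first held 3 Pbx peaks and no palate position, and 3 of its limb Shox2 peaks lay on Pbx. The second held 2 Pbx peaks and 4 palate positions, and 1 of its limb Shox2 peaks lay on Pbx. The most Pbx peaks in this cluster, 5, lay from 73.5 to 73.6 Mb, where neither Shox2 list had a peak.

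Shox2 and Pbx peaks of the limb overlapped at both clusters, which were set against each other in 5 shares. At 1 bp of overlap or more, 17 of 43 limb Shox2 peaks lay on a limb Pbx peak in the Irx3/Irx5/Irx6 cluster (39.5%, 95% Wilson interval 26.4 to 54.4%). The Irx1/Irx2/Irx4 cluster had 10 of 24 (41.7%, 24.5 to 61.2%) and the whole list 26.5%. The difference between the clusters was -2.13 percentage points, with a 95% Newcombe interval from -25.7 to 20.6 (two-sided Fisher's exact test, p = 1). The intervals here and below cover counting error only and treat neighbouring peaks as independent, which they are not. The authors' deposited table of co-occupied regions, which repeats limb Shox2 peaks of this kind, held the same 17 and 10 regions. From the side of Pbx, 14 of 77 Pbx peaks in the Irx3/Irx5/Irx6 cluster met a limb Shox2 peak (18.2%, 11.2 to 28.2%). The Irx1/Irx2/Irx4 cluster had 8 of 35 (22.9%, 12.1 to 39.0%) and the whole list 23.4%. This difference was -4.68 points (interval -22.3 to 10.1; exact p = 0.612). The levels depend on peak extent: with every peak set to 200 bp, 23.3% of limb Shox2 peaks lay on Pbx in the Irx3/Irx5/Irx6 cluster and 20.8% in the Irx1/Irx2/Irx4 cluster, against 16.4% in the whole list.

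Several Pbx peaks carried more than 1 Shox2 peak, 3 in the Irx3/Irx5/Irx6 cluster and 2 in the Irx1/Irx2/Irx4 cluster, each with 2. The widest Pbx peak of the Irx3/Irx5/Irx6 cluster, chr8:94637064-94639873 (2810 bp), held 2 limb Shox2 peaks. The larger of them, chr8:94638077-94639187 (1111 bp), was both the widest limb Shox2 peak of the cluster and its first in file order, at line 1026 of the limb list. Its centre lay 163.5 bp from that of the Pbx peak, and the nearest palate position was 19044 bp away. Shox2 was thus listed at this pair in limb and not in palate. The second limb Shox2 peak in file order, chr8:94810711-94811009, lay on Pbx with the centres 2 bp apart. The next, chr8:94095387-94095938, was 2644 bp from the nearest Pbx peak and 3569 bp from the nearest palate position.

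In the Irx1/Irx2/Irx4 cluster the first limb Shox2 peak in file order was chr13:71802403-71803414 (1012 bp), at line 582 of the list. It lay within chr13:71801854-71803670 (1817 bp), the widest Pbx peak of that cluster, and also held a palate position. The widest limb Shox2 peak, chr13:71649841-71651239 (1399 bp), lay on a Pbx peak with the centres 31.5 bp apart, and the nearest palate position was 4608 bp away. The second in file order, chr13:72758139-72758360, stood alone, 124954 bp from the nearest Pbx peak and 222906 bp from the nearest palate position. The third, chr13:73208386-73208642, lay on a Pbx peak, chr13:73207321-73208985, which was the second Pbx peak of the cluster in file order. Over all co-occupied peaks, the median distance to the nearest Pbx centre was 163.5 bp in the Irx3/Irx5/Irx6 cluster (range 2 to 825 bp) and 246 bp in the Irx1/Irx2/Irx4 cluster (range 31.5 to 427 bp).

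Limb Shox2 peaks off Pbx lay nearer to a Pbx peak in the denser cluster. Of the 26 such peaks in the Irx3/Irx5/Irx6 cluster, 13 were within 10 kb of a Pbx peak and 3 within 1 kb, and the median gap was 10.1 kb. Of the 14 in the Irx1/Irx2/Irx4 cluster, 2 were within 10 kb and none within 1 kb, and the median gap was 24.1 kb. Pbx peaks lay at 38.5 per Mb in the first cluster and 15.2 per Mb in the second, and the part of this density in the gaps was not tested. Not every leading Pbx site had Shox2 nearby. The first 3 Pbx peaks in file order of the Irx3/Irx5/Irx6 cluster, among them chr8:93657140-93659904 (2765 bp, line 350 of the Pbx list), were 36382 to 76173 bp from any limb Shox2 peak. In the Irx1/Irx2/Irx4 cluster the first Pbx peak in file order, chr13:72537431-72539069 (line 249), was 11911 bp from a limb Shox2 peak and 2198 bp from a palate position. The third, chr13:72335530-72336899, overlapped a limb Shox2 peak.

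In the palate, the Irx3/Irx5/Irx6 cluster contained the very first line of the Shox2 list, chr8:95142313. Palate positions are 1 bp wide, as peak summits would be, and the file does not say that its order is a ranking. That position lay in a limb Shox2 peak, chr8:95142149-95142433, 22 bp from its centre, and that limb peak stood at 66.9% of the limb list in file order. No Pbx peak was within 20 kb of it, the nearest being 20625 bp away. The next palate positions of the cluster in file order were chr8:95030109 at line 52, which also lay in a limb Shox2 peak, and chr8:95321689 at line 78, which was 82682 bp from any limb Shox2 peak. All 3 lay between 95 and 95.4 Mb and none lay on Pbx. In the Irx1/Irx2/Irx4 cluster the first palate positions were chr13:71532767 at line 294, chr13:71922844 at line 969 and chr13:71696192 at line 1209. Each of these 3 lay in a limb Shox2 peak, and none lay on Pbx, although chr13:71922844 was 138 bp from a Pbx peak.

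By place in the lists, the medians of the clusters were farthest apart for palate. In the Irx3/Irx5/Irx6 cluster palate positions ran from the first line to 98.8% of the list, with a median of 50.1%, and 9 of 45 (20%) stood in its first 10%. Those of the Irx1/Irx2/Irx4 cluster ran from 1.95 to 70.7%, with a median of 31.5%, and 3 of 23 (13.0%) stood in the first 10%. In the first 50% of the palate list stood 22 of 45 positions (48.9%) of the Irx3/Irx5/Irx6 cluster and 19 of 23 (82.6%) of the Irx1/Irx2/Irx4 cluster. Limb Shox2 peaks had medians of 48.1 and 51.5% of their list in the same order of clusters, and limb Pbx peaks 45.6 and 52.9%. These places were not tested. Widths were close to those of the whole lists. The median limb Shox2 peak was 260 bp wide in the Irx3/Irx5/Irx6 cluster and 231.5 bp in the Irx1/Irx2/Irx4 cluster, against 261 bp in the whole list, and the median Pbx peak 898 and 806 bp, against 897 bp in the whole list.

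**Figure D3:**
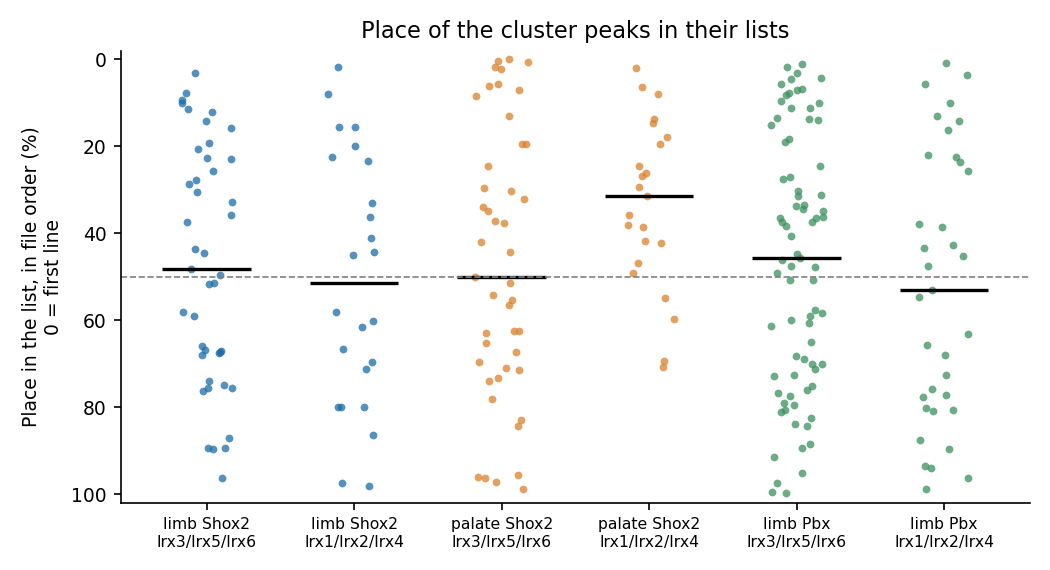
Place of each cluster peak in its list, as percent of the lines in file order with the first line at the top, for limb Shox2, palate Shox2 and limb Pbx in each cluster. Points are single peaks, black bars are medians and the dashed line marks 50%; the palate positions of the Irx1/Irx2/Irx4 cluster have a median of 31.5%, and the other medians lie between 45.6 and 52.9%.

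Palate positions lay inside limb Shox2 peaks in both clusters at shares near that of the whole palate list. In the Irx3/Irx5/Irx6 cluster 6 of 45 palate positions lay in a limb Shox2 peak (13.3%, Wilson interval 6.26 to 26.2%), and in the Irx1/Irx2/Irx4 cluster 4 of 23 did (17.4%, 6.98 to 37.1%), against 14.2% of the whole palate list. The difference of -4.06 points had an interval from -25.03 to 12.48 (two-sided Fisher's exact test, p = 0.724). Another 3 positions of the Irx3/Irx5/Irx6 cluster missed a limb peak by 100 bp or less, namely chr8:94135613 by 86 bp, chr8:94764651 by 80 bp and chr8:95029820 by 71 bp. The last of these and chr8:95030109 lay beside and inside the same limb peak, chr8:95029891-95030175. None of the Irx1/Irx2/Irx4 positions missed by 100 bp or less, but 3 missed by 174 to 455 bp, all around the limb peak chr13:71542885-71543108. Within 500 bp of a limb peak lay 9 of 45 palate positions in the Irx3/Irx5/Irx6 cluster (20%). In the Irx1/Irx2/Irx4 cluster 7 of 23 did (30.4%), against 19.8% of the whole palate list. The 4 shared positions of the Irx1/Irx2/Irx4 cluster all lay between 71.5 and 72.0 Mb.

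Palate positions lay on limb Pbx in 10 of 45 cases in the Irx3/Irx5/Irx6 cluster (22.2%, 12.54 to 36.27%) and in 3 of 23 in the Irx1/Irx2/Irx4 cluster (13.0%, 4.54 to 32.1%), against 15.6% of the whole palate list. The difference was 9.18 points, with an interval from -12.2 to 25.6 (two-sided Fisher's exact test, p = 0.519). Among the leading 50% of lines of every list the shares were 4.55% and 5.26% in the same order of clusters, against 12.2% in the whole lists cut the same way. These 2 shares rest on only 22 and 19 palate positions. With positions within 500 bp of a Pbx peak counted, the shares were 24.4% and 26.1%, against 17.2% of the whole palate list. Of the 10, 8 were outside every limb Shox2 peak, and of the 3, 2 were. Neither limb list met 31 of the 45 palate positions of the Irx3/Irx5/Irx6 cluster and 17 of the 23 of the Irx1/Irx2/Irx4 cluster.

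Sites where a limb Shox2 peak overlapped Pbx and also held a palate position were 2 of 43 limb peaks in the Irx3/Irx5/Irx6 cluster. They were 2 of 24 in the Irx1/Irx2/Irx4 cluster and 781 of 33915 in the whole limb list (2.3%). In the Irx3/Irx5/Irx6 cluster these peaks were chr8:94099417-94099689 and chr8:94472335-94472933. The palate positions in them, chr8:94099507 and chr8:94472686, were 46 and 52 bp from the centres of the limb peaks, and both lay on Pbx as well. Those of the Irx1/Irx2/Irx4 cluster were chr13:71802403-71803414 and chr13:71922675-71922877. The palate position of the first, chr13:71803244, was 335.5 bp from the centre of the limb peak and lay on Pbx. That of the second, chr13:71922844, lay outside the Pbx peak, which covered only the other end of the limb peak.

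Limb peaks made up a smaller part of all Shox2 peaks in each cluster than in the whole lists. Limb peaks made up 43 of 88 Shox2 peaks in the Irx3/Irx5/Irx6 cluster (48.9%, Wilson interval 38.7 to 59.1%) and 24 of 47 in the Irx1/Irx2/Irx4 cluster (51.1%, 37.2 to 64.7%), against 69.2% of both lists together. The clusters differed by -2.20 points (Newcombe interval -19.2 to 15), with a p of 0.858 by the same exact test. After Benjamini-Hochberg adjustment over the 5 shares, each of these between-cluster tests had an adjusted p of 1. Intervals this wide do not show that the clusters are alike.

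**Figure D4:**
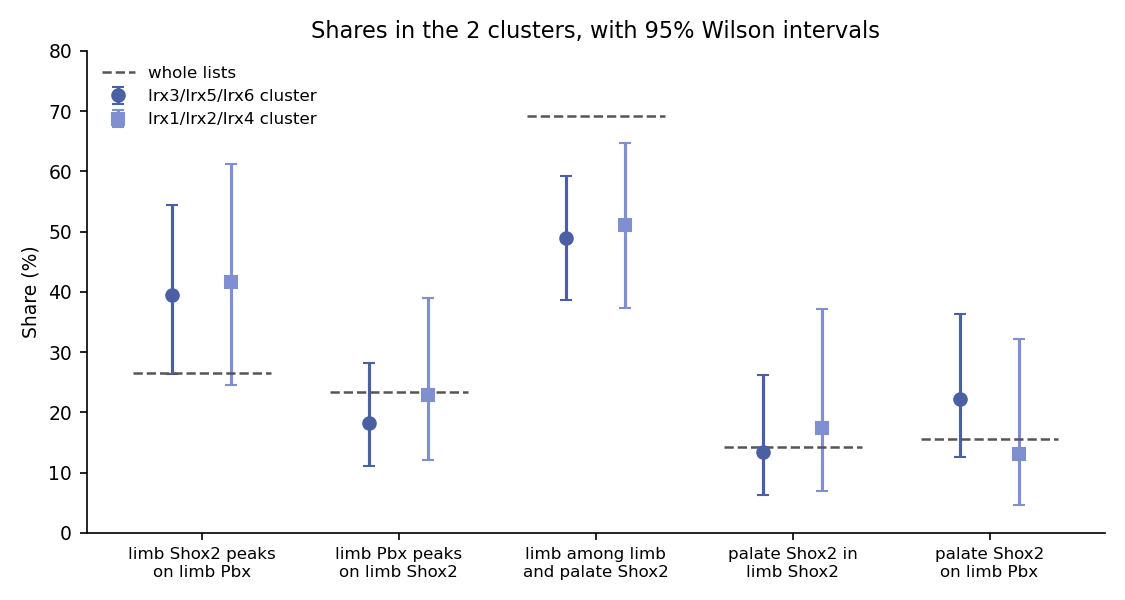
The 5 shares in percent (vertical axis), with circles for the Irx3/Irx5/Irx6 cluster and squares for the Irx1/Irx2/Irx4 cluster. Bars are 95% Wilson intervals for counting error and dashed lines the shares over the whole lists; the intervals of the clusters overlap for each share, and the limb part of all Shox2 peaks, 48.9 and 51.1%, lies below the 69.2% of the whole lists.

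The balance was tested over the genome in fixed windows of 1 Mb, leaving out those with fewer than 5 Shox2 peaks, each set against all other peaks by two-sided Fisher's exact tests with Benjamini-Hochberg adjustment over 2259 windows. Among the 6 windows that touch the clusters, 1 passed the threshold of 0.05, toward palate, as did 10.8% of all windows tested, while 5.22% passed toward limb. It was chromosome 8 from 95 to 96 Mb, where 7 peaks were of limb and 13 of palate (exact test, adjusted p = 0.0208), all of them before 95.5 Mb and so inside the Irx3/Irx5/Irx6 cluster. This is the stretch that also held the first palate positions in file order. The neighbouring window, 94 to 95 Mb, held 29 peaks of limb and 24 of palate (exact test, adjusted p = 0.11), and the window from 93 to 94 Mb held 17 of limb and 16 of palate (exact test, adjusted p = 0.133). On chromosome 13, 7 peaks of limb and 11 of palate lay from 72 to 73 Mb (exact test, adjusted p = 0.054). From 71 to 72 Mb there were 25 of limb and 22 of palate (exact test, adjusted p = 0.109), and from 73 to 74 Mb 5 of limb and 2 of palate (exact test, adjusted p = 1). The limb share was below that of the other windows in 5 of the 6. How many of the 2259 windows lay below in this way was not counted, so this is not shown to be particular to the clusters. Windows at the cluster edges also count peaks outside the clusters. The window tests treat neighbouring peaks as independent, which they are not, so their p-values may be too small. With windows of 1 Mb moved by 500 kb, 2 of 5 cluster windows passed toward palate, 1 in each cluster, as did 9.77% of the 2261 windows tested over the genome, while 5.04% passed toward limb. These were chromosome 8 from 94.5 to 95.5 Mb, where 18 peaks were of limb and 24 of palate (exact test, adjusted p = 0.00849), and chromosome 13 from 71.5 to 72.5 Mb, where 17 were of limb and 22 of palate (exact test, adjusted p = 0.0152). Each tissue had 1 library, so a difference between tissues and a difference between libraries cannot be told apart.

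The share of limb Shox2 peaks on Pbx was tested in the same way over 1947 windows with at least 5 limb Shox2 peaks. None of the 6 cluster windows passed the threshold by the exact test after adjustment, against 0.976% of all windows toward a higher and 0.0% toward a lower share. Before adjustment, 2 of the 6 had a p under 0.05 by this test. The part of all windows with such an unadjusted p was not counted, so these 2 cannot be set against the genome. The 2 windows were chromosome 8 from 94 to 95 Mb, with 14 of 29 peaks on Pbx (48.3%; exact test, adjusted p = 0.254), and chromosome 13 from 73 to 74 Mb, with 4 of 5 (80%; exact test, adjusted p = 0.322). Of those 5 peaks only 3 lay inside the Irx1/Irx2/Irx4 cluster, and 2 of the 3 lay on the same Pbx peak.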

How the data were processed

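The deposited files list peaks by chromosome, start and end, with no height, score or p-value. Bowtie, MACS2 and build mm9 are named per the submitters' processing notes, while versions and settings of peak calling are not given in the sources. Cluster members were the peaks with their midpoint in the stated windows. Overlap meant at least 1 bp. Shares were compared between clusters with two-sided Fisher's exact tests, with Wilson intervals for shares and Newcombe intervals for differences, and windows of 1 Mb were tested over chromosomes 1 to 19 and X. Every p-value describes these lists, since each group has 1 library. Each test also treats neighbouring peaks as independent, which they are not. Whole-list densities used the span covered by peaks. Peaks described singly were the limb Shox2 peaks on Pbx with a palate position and each cluster's first 3 peaks per list in file order. The widest peaks and the densest stretches of 100 kb were also described. The palate positions within 500 bp of a limb peak and the 500 kb counts were picked after their values were seen. The clusters, lists and tests were chosen with earlier results of these data known. The code was tested on simulated data. Python 3.11.15, NumPy 2.4.6, SciPy 1.17.1, pandas 2.3.3, statsmodels 0.14.6 and matplotlib 3.10.9 were used.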

Additional observations from a re-analysis of the deposited data

How the results depend on the processing

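Of 23 alternatives for the 5 shares compared between the clusters, none passed the threshold (smallest adjusted p = 0.795 by Fisher's exact test) and 16 kept the direction of the difference, given as the Irx3/Irx5/Irx6 cluster minus the Irx1/Irx2/Irx4 cluster. The direction turned in the other 7. With windows shortened by 0.25 Mb at each end, the share of palate positions in limb peaks differed by 4.17 points, and with windows lengthened by 0.25 Mb the share of limb Shox2 peaks on Pbx differed by 1.29 points. With every peak set to 200 bp, these shares differed by 2.51 and 2.42 points. In the first 50% of each list the limb part of Shox2 peaks differed by 12.4 points and the share of palate positions on Pbx by -0.718 points, and with palate positions within 500 bp of a peak counted, that share on Pbx differed by -1.64 points. The cause was not tested. The widest differences, both in the first 50% of each list, were -15.2 points for limb Shox2 peaks on Pbx (34.8% and 50%, for the Irx3/Irx5/Irx6 and the Irx1/Irx2/Irx4 cluster) and -19.0 points for Pbx peaks on limb Shox2. Some levels moved by more than 1.5 times in at least 1 cluster. Limb Shox2 peaks on Pbx stood at 23.3% and 20.8% with every peak at 200 bp (whole list 16.4%). Pbx peaks on Shox2 stood at 3.90% and 8.57% when 50% of the peak had to be covered (6.13%). They stood at 16.3% and 35.3% in the first 50% of each list (22.8%), and at 13.0% and 14.3% with every peak at 200 bp (16.3%). Palate positions on Pbx stood at 11.1% and 4.35% with every peak at 200 bp (9.37%). In the first 50% of each list they stood at 4.55% and 5.26% (12.2%), and within 500 bp of a Pbx peak at 24.4% and 26.1% (17.2%). Palate positions in limb peaks stood at 9.09% and 10.5% in the first 50% (13.7%) and at 20% and 30.4% within 500 bp (19.8%). Over the genome, windows of 500 kb gave 218 calls between limb and palate against 361 at 1 Mb, with fewer peaks per test. Of the cluster windows, 1 of 6 was called at 1 Mb, and 2 of 7 at 500 kb, 2 of 5 with windows moved by 500 kb and 2 of 5 with at least 10 peaks, all toward palate. Toward palate over the genome were 10.8%, 5.25%, 9.77% and 11.2% of windows in these settings. With at least 10 peaks per window, 1841 windows were tested in place of 2259, and chromosome 13 from 72 to 73 Mb passed (exact test, adjusted p = 0.0496). No cluster window was called for the share on Pbx in any alternative. No paired analysis was possible because there is only 1 library per group, so none could be left out either. With depth unknown, an unlisted site may be bound below the cutoff used.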
